A study of Rattus norvegicus with 10 samples.

Results

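The first and second complementarity-determining regions (CDR1 and CDR2) of the rat immunoglobulin heavy chain are loops that are encoded in the germline IGHV gene, so that reads of the same gene are expected to carry loops of the same length. The reads that departed from this were collected here. For each IGHV gene with at least 1000 productive reads over all animals the most frequent number of residues of CDR1 and of CDR2 was taken as its usual length, and a read was a length variant when either loop had another length. The members were thus chosen by measured values, namely the lengths themselves, and their total number and their lengths are given as a description. Of 1615896 productive reads, 1603752 named 1 of the 55 counted genes, and 18652 of these (1.16%) were length variants. The reads of the counted genes numbered 60225 to 258379 per animal.

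The reads came from spleen cell RNA of 10 Wistar rats. Of these, 5 (HuD1 to HuD5) were immunized with recombinant human HuD, a neuronal RNA-binding protein that is the target of antibodies in a paraneoplastic neurological syndrome, and 5 (DNP1 to DNP5) with keyhole limpet hemocyanin carrying dinitrophenyl residues (DNP), a small and well-defined hapten. All animals received Freund's complete adjuvant at the first injection and incomplete adjuvant at the boosts, and there was no group without immunization. No label gives the age of the animals, and whole spleen suspensions were used, so that the B cells were not sorted by antigen binding. A read is 1 sequence after the authors collapsed the sequencing output by its molecular tag, and the number of sequenced copies behind each read was deposited beside it. The paper's supplement states that this tag proved too short, and that bases of the CDR3 served as an additional tag. Reads and copy numbers are therefore not independent of CDR3.

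In an antibody, CDR1, CDR2 and CDR3 together form the antigen-binding surface, and the framework regions FR1, FR2 and FR3 lie between them. CDR3 arises at the junction of the joined gene segments and marks a clone, whereas CDR1 and CDR2 vary between B cells mainly by gene choice and by somatic hypermutation. Hypermutation mostly exchanges single bases, and insertions and deletions of bases are also known to occur during it. A read that keeps its reading frame after such a change has a loop that is longer or shorter by whole residues.

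The sequences of the most abundant length variants show how small most of the changes were. Each line below gives the most frequent amino acid sequence of the loop at the other length and, after it, the most frequent sequence of the same gene at its usual length, for the 8 of the 10 most abundant length variants in which the loop was shorter by 1 residue.
IGHV3-3 CDR1, 8 residues: GYSITSNY
IGHV3-3 CDR1, usual 9 residues: GYSITSSYR
IGHV5-25, IGHV5-27 and IGHV5S13 CDR2, 7 residues: ISPSGVT
IGHV5-25, IGHV5S13 and IGHV5S23 CDR2, usual 8 residues: ISTGGGNT
IGHV5-27 CDR2, usual 8 residues: ISTGGGST
IGHV5-17 CDR2, 7 residues: IIYDDTT
IGHV5-17 CDR2, usual 8 residues: IIYDGSST
IGHV5-31 CDR2, 7 residues: ISNIDDT
IGHV5-31 CDR2, usual 8 residues: ITNTGGST
IGHV5-20 CDR2, 7 residues: ISYDGAS
IGHV5-20 CDR2, usual 8 residues: ISYDGGST
IGHV5S23 CDR2, 7 residues: ISTSDFT
These sequences already separate into 2 kinds. GYSITSNY of IGHV3-3 is also the most frequent CDR1 of the gene IGHV3-1 at the usual length of that gene, 8 residues, with 63635 reads. The CDR2 sequences ISPSGVT, IIYDDTT, ISNIDDT and ISTSDFT each came from a single animal among the reads with unchanged frameworks.

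The usual lengths themselves were few. Of the 55 genes, 24 had a CDR1 of 8 and a CDR2 of 7 residues, 24 had 8 and 8 residues, 5 had 8 and 10 residues, and 2 had 9 and 7 residues. The gene with the fewest reads that was still counted was IGHV7-7 with 1136 reads, and the gene just under the minimum was IGHV6-13 with 955 reads. Every counted gene had at least 1 length variant. A change of CDR2 alone was found in 9357 of the length variants (50.2%), a change of CDR1 alone in 7526 (40.3%), and a change of both in 1769 (9.48%).

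Pooled over the genes, loss of a single residue was the most frequent change in both loops. For CDR1 this rested on IGHV3-3, which held 4827 of the reads 1 residue shorter but only 90 of those without a CDR1. In the other genes together, reads without a CDR1 outnumbered those 1 residue shorter. Of the 9295 reads with a CDR1 of another length, 5533 (59.5%) were 1 residue shorter, 358 (3.85%) were longer, and 1759 (18.9%) had no CDR1 residue at all. Of the 11126 reads with a CDR2 of another length, 8224 (73.9%) were 1 residue shorter, 13 (0.117%) were longer, and 1903 (17.1%) had no CDR2 residue. Longer loops were therefore far fewer than shorter loops, and all 358 longer CDR1 loops had a single additional residue.

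**Figure D1:**
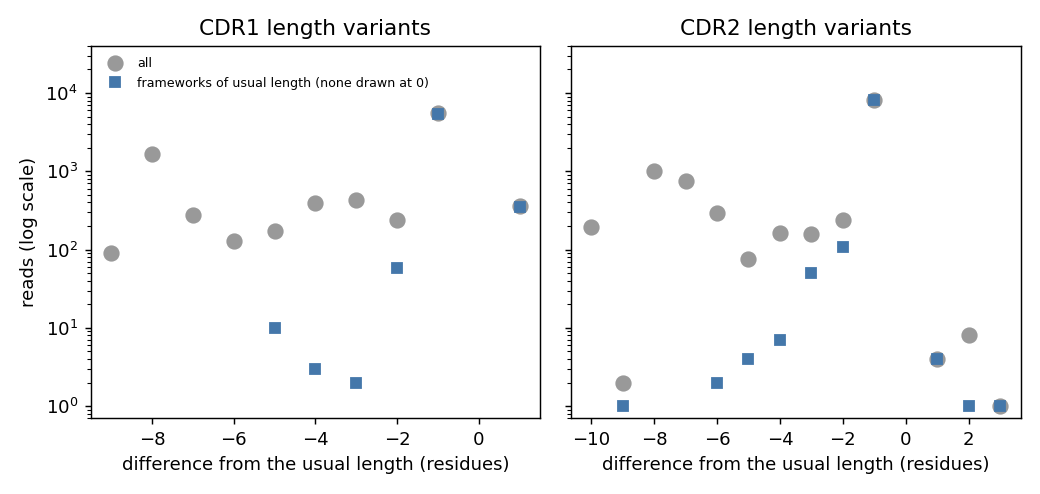
Number of length variants (y axis, log scale) by the difference from the usual length of the gene in residues (x axis), for CDR1 and CDR2, with all reads as circles and the reads whose FR1, FR2 and FR3 all had their usual length as squares. The reads 1 residue shorter stand above all other sizes, 5533 in CDR1 and 8224 in CDR2, and nearly all of them had frameworks of usual length, whereas among the losses of 6 or more residues almost none did.

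The framework regions divided the length variants into classes, which were defined after the values were seen and were not tested. In 14073 of the length variants (75.5%) FR1, FR2 and FR3 all had the usual length of the gene, so that the change was confined to a loop. Of the CDR2 loops 1 residue shorter, 99.0% were of this kind, and of the CDR1 loops 1 residue shorter 96.4%. In the remaining 4579 (24.5%) a framework length had changed too, compared with 0.620% of the reads with usual loops. Of these, 1739 had no FR1 at all, whereas only 87 reads with usual loops lacked FR1.

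The reads without a CDR1 were mainly reads in which the neighbouring framework was missing as well. Of the 1759 reads without a CDR1, 1060 (60.3%) had no FR1 either and 808 had no FR2, while 966 still had a CDR2 of usual length. Of the 1903 reads without a CDR2, 1391 had no FR2 and 1879 had a shortened FR3. Only 340 reads had neither loop. The part of incomplete reads in this class was not tested.

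The share of length variants differed between the animals by more than counting error. In the HuD animals 1 to 5 it was 1.67%, 0.903%, 0.829%, 2.09% and 0.665% of the reads of the counted genes, and in the DNP animals 1 to 5 it was 0.932%, 1.09%, 1.78%, 1.18% and 0.813%. The highest share, in HuD4, had a 95% Wilson interval of 2.03 to 2.16%, and the lowest, in HuD5, of 0.630 to 0.701%, and these intervals cover counting error only. HuD4, DNP3 and HuD1 were the 3 highest animals, so that both the highest and the lowest share belonged to the HuD group and the groups overlapped.

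**Figure D2:**
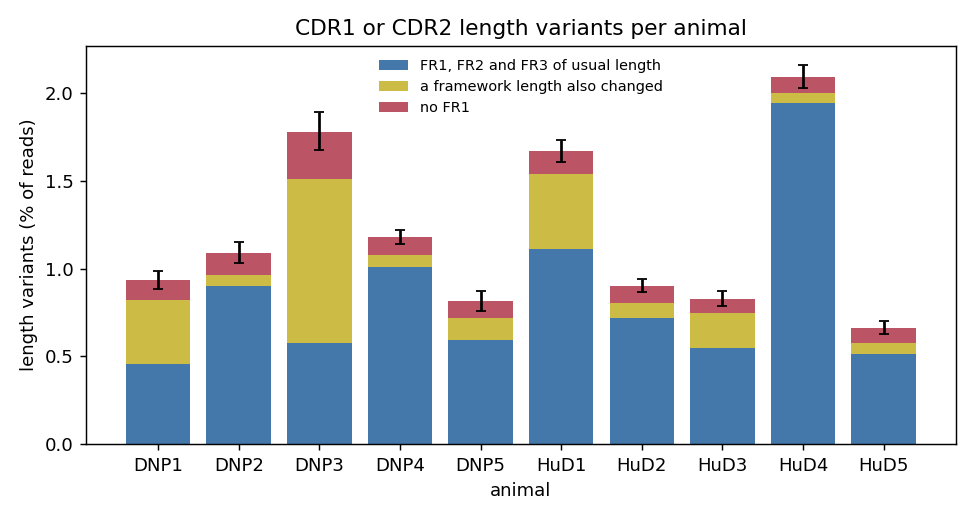
Length variants as percent of the reads of the counted genes (y axis) in each animal (x axis), stacked by class of the framework lengths, with the 95% Wilson interval of the total as error bar. HuD4 has the highest total (2.09%), nearly all of it with usual frameworks, whereas in DNP3 (1.78%) only 0.576% has usual frameworks.

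The first comparison asked whether the antigen of the immunization was related to the share of length variants. The mean share was 1.23% ± 0.617 (SD, n = 5) with HuD and 1.16% ± 0.375 (SD, n = 5) with DNP, a difference of 0.07 percentage points (exact permutation test over the animals, two-sided, p = 0.865, adjusted p = 0.873 over 7 tests). For CDR1 alone the shares were 0.485% ± 0.160 and 0.688% ± 0.286 (SD, n = 5 each; exact permutation p = 0.190, adjusted p = 0.444), and for CDR2 alone 0.851% ± 0.649 and 0.686% ± 0.512 (SD, n = 5 each; exact permutation p = 0.738, adjusted p = 0.873). None of these differences was larger than the spread between the animals, and with 5 animals against 5 the smallest p this test allows is 0.00794. The same held when the counted genes were given equal weights in all animals, with 1.35% ± 0.612 for HuD and 1.53% ± 0.911 for DNP (SD, n = 5 each; exact permutation p = 0.770). DNP3 had the highest of these values, 3.15%, in which genes with few reads in that animal counted with their full weight.

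Counting clones in place of reads gave the same picture. A clone was defined here as the reads of an animal with the same IGHV gene, IGHJ gene and CDR3 amino acids. Of the clones of an animal, 2.59% ± 0.941 held at least 1 length variant with HuD and 2.50% ± 0.729 with DNP (SD, n = 5 each; exact permutation p = 0.873, adjusted p = 0.873). The single animals ranged from 1.68% in HuD5 to 3.84% in HuD4, with DNP3 next to the highest at 3.71%.

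The antigens were also compared for each of the 38 genes that had at least 20 reads in every animal. No gene passed an adjusted p of 0.05 (0%, Benjamini-Hochberg over the 38 genes, lowest adjusted p = 0.402 from the exact permutation test), and 4 genes (10.5%) had an unadjusted p below 0.05. These 4, which were named after their values were seen, were IGHV2-63 and IGHV5-17 with higher mean shares in HuD animals, and IGHV5-34 and IGHV5-29 with lower ones. For IGHV5-17 the difference of 6.92 percentage points came from HuD1, in which 34.3% of the reads of the gene were length variants, whereas the other 4 HuD animals had 0.288 to 0.503%. For IGHV5-29 the mean of the DNP animals rested on DNP3 with 8.70%, which stands for only 2 reads.

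The length variants were unevenly spread over the genes. The 10 genes with the highest mean abundance of length variants over the animals, in reads per 1000000 productive reads (RPM), held 14117 of them (75.7%). In the median gene 0.587% of all reads were length variants, 41 of the 55 genes were below 1%, and the lowest share was 0.119% in IGHV1-57. Genes of the IGHV5 subgroup held 58.0% of the length variants and genes of the IGHV3 subgroup 32.1%, and the 23 genes of the IGHV2 subgroup held 5.75%. The kind of change also differed between the subgroups. In IGHV5 it was mostly CDR2 (9393 reads, against 2384 with a changed CDR1), and 78.1% of the length variants had usual frameworks, whereas in IGHV3 it was mostly CDR1 (5783 against 519 reads) with 88.3% of usual frameworks. In IGHV2, only 19.7% had usual frameworks. Gene names are less certain between close relatives, since 13.2% of the length variants and 14.1% of all reads of the counted genes named several genes, of which the first was used.

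IGHV3-3 had by far the most length variants. Of its 61021 reads, 5118 (8.39%) had a loop of another length, which was 27.4% of all length variants. Among them 4827 reads had a CDR1 of 8 in place of 9 residues, and this single length variant reached 2567 RPM ± 2362 (SD, n = 10). In the DNP animals 1 to 5 it was found in 233, 785, 17, 1497 and 82 reads, and in the HuD animals 1 to 5 in 19, 1038, 19, 626 and 511 reads. As a share of the IGHV3-3 reads of the animal this was 9.33%, 16.3%, 4.35%, 13.3% and 1.79% with DNP, and 0.342%, 7.06%, 12.5%, 5.60% and 8.63% with HuD. It was thus present in every animal, and low in HuD1 although that animal had 5561 reads of the gene.

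The shorter CDR1 of IGHV3-3 was read with many CDR3s. The 4827 reads fell into 1609 combinations of animal, IGHJ gene and CDR3, of which the largest held 4.97%, and to 312 different CDR1 sequences. GYSITSNY made up 2621 of them (54.3%), and among the reads with usual frameworks it was read with 1032 different CDR3s. Further sequences that differed from it by 1 residue were DYSITSNY (191 reads, 6 animals), GYSITSNF (112 reads, 8 animals), GFSITSNY (96 reads, 6 animals), GYSITSDY (90 reads, 6 animals) and GYSITNNY (89 reads, 9 animals). GYSISRTY (112 reads) was found in DNP4 only, with 65 different CDR3s. In 81.7% of the 4861 reads of the IGHV3 subgroup with a CDR1 shorter by 1 and usual frameworks, the annotation placed the missing residue in the last of the 13 alignment columns of the loop, where the usual IGHV3-3 sequence has arginine.

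IGHV3-1 showed the opposite change. Its usual CDR1 has 8 residues, and 356 of its reads had 9, the only common lengthening in the data. The most frequent of these longer loops, with 121 reads, was GYSITSSYR, the sequence that is usual in IGHV3-3. A CDR1 of 9 residues was found in 10, 70, 72 and 2 reads of IGHV3-1 in DNP1, DNP2, DNP4 and DNP5, and in 3, 107, 61 and 31 in HuD1, HuD2, HuD4 and HuD5. It was not detected in DNP3 (0 of 4973 reads) and HuD3 (0 of 4961 reads), which allows a share of up to 0.0603% and 0.0605%. The highest shares of the IGHV3-1 reads were 1.11% in HuD4 and 1.01% in HuD2.

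Because the most frequent sequence in each of these sets of reads was the usual one of the other gene (54.3% of the shorter IGHV3-3 and 34.0% of the longer IGHV3-1 reads), the other segments were inspected at the positions where the most frequent residues of IGHV3-1 and IGHV3-3 differ. FR1 has no such position, FR2 has 4, CDR2 has 3 and FR3 has 2. In the IGHV3-3 reads with a CDR1 of 8 residues, 24.9% of the FR2 residues were those of IGHV3-1 and 64.8% those of IGHV3-3, compared with 1.43% and 90.0% in the IGHV3-3 reads of usual length. In CDR2, in contrast, 0.618% were those of IGHV3-1, close to the 0.707% in the reads of usual length. In FR3 the values were 10.1% and 6.70%.
The longer IGHV3-1 reads had the mirror image in FR2, where 65.8% of the residues were those of IGHV3-3 compared with 18.3% in IGHV3-1 reads of usual length, whereas in CDR2 79.8% were still those of IGHV3-1. In their FR3 32.1% were those of IGHV3-3 compared with 10.7%. These shares are descriptions over reads that share clones, and the origin of these reads was not tested. The gene names were assigned from these same sequences. The residues of the other segments are therefore not independent of the name, and the contrast between segments can follow from the naming.

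**Figure D3:**
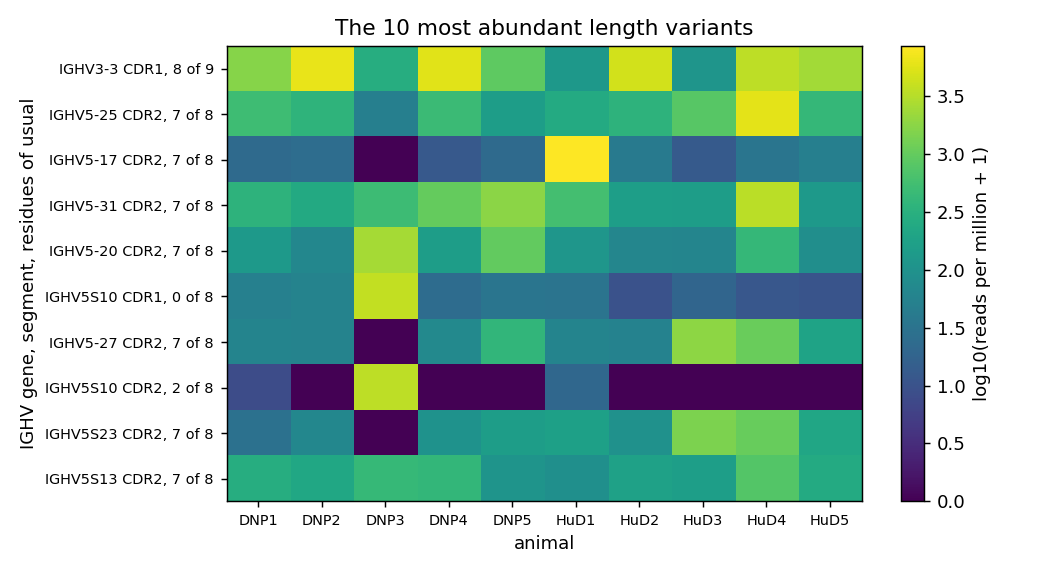
Abundance of the 10 most abundant length variants (rows, given as gene, loop and residues of the usual number) in each animal (columns), as log10 of RPM plus 1. The shorter IGHV3-3 CDR1 is present in all 10 animals, whereas IGHV5-17 in HuD1 and both IGHV5S10 rows in DNP3 are bright in a single animal.

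Among the IGHV5 genes, the most abundant length variants were high in 1 or a few animals. IGHV5-25 with a CDR2 of 7 residues was found in 1690 reads, of which 1091 (64.6%) came from HuD4. In the DNP animals 1 to 5 it had 72, 45, 3, 124 and 14 reads, and in the HuD animals 1 to 5 it had 40, 78, 136, 1091 and 87. As a share of the gene, 5.51% of the IGHV5-25 reads of HuD4 were length variants, and 0.427 to 0.698% in the other HuD animals. Without HuD4 the mean share of IGHV5-25 over the animals was 0.644%, in place of 1.13%.

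IGHV5-17 was the most one-sided. Of its 1369 reads with a CDR2 of 7 residues, 1331 (97.2%) came from HuD1, and the other 9 animals had 10 reads or fewer. In HuD1 they amounted to 8517 RPM, against 11.9 to 48.2 RPM in the other HuD animals. A single clone, with the CDR3 ARHYYYDGYWFAY, held 65.1% of the 1369 reads. Without HuD1, the mean share of length variants in IGHV5-17 was 0.307%, in place of 3.70%.

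IGHV5-31 with a CDR2 of 7 residues had 1316 reads. These were 48, 30, 30, 261 and 159 reads in the DNP animals 1 to 5 and 89, 36, 26, 609 and 28 in the HuD animals 1 to 5, so that HuD4 was highest, with 46.3% of all, and DNP4 and DNP5 followed. The 206 different CDR2 sequences in these reads contrast with 57 in the reads of IGHV5-17. The most frequent, ISNIDDT, made up only 15.7%.

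IGHV5-27 and IGHV5S23 had most of their reads in HuD3 and HuD4. IGHV5-27 with a CDR2 of 7 residues had 307 reads in HuD3 and 196 in HuD4 of 632 in all, and IGHV5S23 had 242 and 188 of 575. As a share of the gene, length variants of IGHV5-27 were most frequent in DNP5 (6.82%), next to HuD3 (6.48%) and HuD4 (4.93%), and those of IGHV5S23 in HuD3 (11.3%) and HuD4 (5.60%). The CDR2 of 7 residues was not detected in DNP3 for either gene. There the genes had only 257 and 104 reads, which allows shares of up to 1.17% and 2.88%. Length variants of other kinds numbered 3 in IGHV5-27 and 2 in IGHV5S23 in that animal. IGHV5S13 was spread more evenly, with 10 to 140 reads in each of the 10 animals and 287 RPM ± 200.1 (SD, n = 10).
IGHV5-20 with a CDR2 of 7 residues was highest in the DNP group, with 155 of its 445 reads in DNP3 and 88 in DNP5.

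The 2 remaining length variants among the 10 most abundant were of another kind. IGHV5S10 without a CDR1 (265 reads) and IGHV5S10 with a CDR2 of only 2 residues, RT (217 reads), came mainly from DNP3, with 228 and 213 reads. In both, none of the reads had usual frameworks. A single clone of DNP3, with the CDR3 VTHPSWFGY, held 78.9% and 94.9% of them. Of the 210 length variants of this clone, 206 had an FR1 of 15 residues, no CDR1, no FR2, a CDR2 of 2 residues and an FR3 of 38 residues. The 310 other reads of the clone had the usual lengths of 25, 8, 17, 8 and 38 residues from FR1 to FR3. In DNP3, 17.0% of the IGHV5S10 reads were length variants, and 0.227 to 0.493% in the other DNP animals.

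The position of the lost residue was examined over the pooled reads. In the IGHV5 reads with a CDR2 shorter by 1 and usual frameworks (7903 reads), the annotation placed the loss in column 9 of the 10 alignment columns of the loop in 29.4%, in column 8 in 23.6% and in column 7 in 20.2%. The first column was involved in 0.759%. ISPSGVT of HuD4 and IIYDDTT of HuD1 made up 33.4% of these reads, and without them columns 9, 8 and 7 held 44.1%, 7.75% and 9.17%. Columns 4 and 3 then held 14.4% and 10.6%, more than columns 7 and 8. The column with the most reads differed between the animals, such as column 7 in HuD1 (71.1%), 8 in HuD4 (58.9%), 9 in HuD3 (67.8%), 4 in DNP2 (32.4%) and 3 in DNP5 (42.2%). In the 113 such reads of the IGHV2 genes, the losses were spread over the columns, from 7.08% in column 10 to 20.4% in column 4, and the subgroups were not compared by a test. Because the files hold amino acids only, neither the lost bases nor their borders could be seen.

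The same CDR2 sequences of another length were then followed across gene names and animals, among the reads with usual frameworks. Of the 42 CDR1 or CDR2 sequences with 40 or more reads, 11 were found in a single animal and 3 in all 10. Of the 26 CDR2 sequences 10 were read in 1 animal only, and of the 16 CDR1 sequences 1. Most of the listed CDR1 sequences were of IGHV3-3, whereas the CDR2 sequences were mainly of IGHV5 genes, so that loop and gene cannot be told apart here. These numbers describe the listed sequences and were not tested.

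ISPSGVT was the most frequent CDR2 of another length. All 1523 reads came from HuD4, but they carried 16 different gene names, with 921 reads named IGHV5-25, 177 IGHV5-27, 158 IGHV5S23 and 98 IGHV5S13. They also carried 555 different CDR3s. The 4 most frequent were closely related, namely VRQDTSGYSNWFAY (289 reads), VRQDTSGYSNWFTY (232 reads), ARQDTSGYSNWFAY (73 reads) and ARQDTSGYSNWFTY (25 reads). Reads with a CDR3 that differed from the first of them by up to 2 residues numbered 713 (46.8%), over 46 CDR3s, and 94.7% of them used IGHJ3.

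The other 810 ISPSGVT reads carried 509 further CDR3s. Among these were CDR3s that were abundant in HuD4 on usual reads, such as ARHGYNSYFDY (10 of 6061 reads, the most abundant CDR3 of the animal), ARRHYGYTDYFDY (24 of 5742 reads, rank 2) and ARHWGY (13 of 2795 reads, rank 3). In all, 907 of the 1523 reads had a CDR3 that ranked among the 100 most abundant of HuD4. Among them were the 4 related CDR3s above (ranks 25, 14, 37 and 39). The share of all HuD4 reads with such a CDR3 was not computed, so that the 907 reads cannot be called an excess. The reads of the family had 2 or more sequenced copies in 10.5%, and the other ISPSGVT reads in 0.370%. A molecule joined from 2 templates during amplification would be counted here as a further gene name, CDR3 or clone, and the part of such molecules in these counts was not tested.

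Other CDR2 sequences of single animals had the same form. IIYDDTT was found in 1113 reads of HuD1 with 184 CDR3s, of which ARHYYYDGYWFAY made up 80.1% and 159 were seen in 1 read each. ISTSDFT was found in 297 reads of HuD3 with 161 CDR3s, of which TTYGGLRNWFAY made up 38.4%. ISNIDDT was found in 254 reads of HuD4 with 76 CDR3s, of which SPLPGYNLDH made up 55.5%. The related ISNTGDT (189 reads, 188 of them in HuD4), ISNIGDT (100 reads) and ISNAGDT (85 reads) of HuD4 were most often read with SPLPGYNLDY, SPLPGYNLDH and SPLPGHNLDY, respectively.

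A few shortened CDR2 sequences were found in most of the animals. ISTGGST had 188 reads in 9 animals with 167 CDR3s, none of which exceeded 7 reads, and the usual sequence with 1 more residue, ISTGGGST, had 1955 reads in HuD2, where ISTGGST was most frequent. ISTGGGT and ISTGGNT were found in all 10 animals, with 90 and 85 reads. ISYDGST (43 reads, 9 animals) was read with 43 different CDR3s, 1 read each. The sequences of single animals were mixed in this respect. For ISTSDFT and ISNIDDT no usual CDR2 of the same animal held the same residues plus 1 more, for IIYDDTT the most frequent such sequence, IIYDDTRT, had 16 reads, and for ISPSGVT it was ISPSGVGT with 170 reads. No such longer sequence of IIYDDTT or ISPSGVT was read in the same animal with the most frequent CDR3 of the shorter one.

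**Figure D4:**
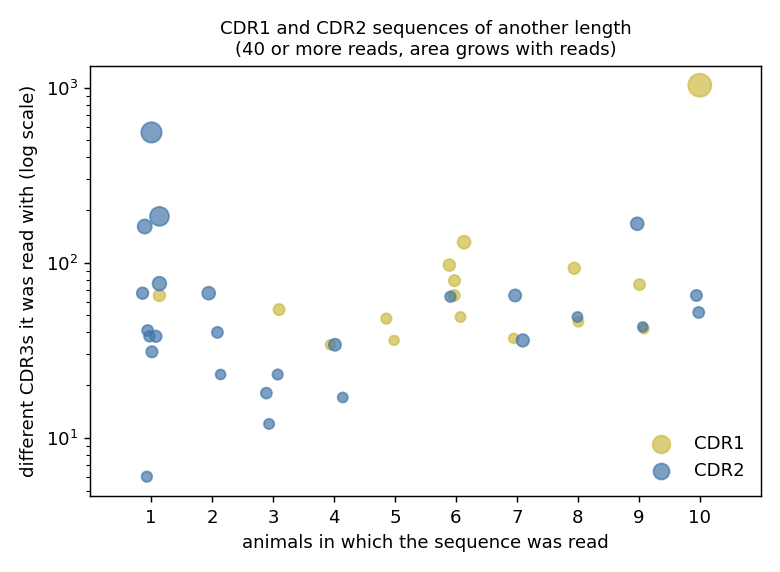
Each point is a CDR1 (yellow) or CDR2 (blue) sequence of another length with 40 or more reads and usual frameworks, by the number of animals in which it was read (x axis, with small random offsets) and the number of different CDR3s it was read with (y axis, log scale), with larger points for more reads. GYSITSNY is at the top right with 10 animals and 1032 CDR3s, and ISPSGVT at the top left with 1 animal and 555 CDR3s.

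Most clones with a length variant held only 1, with a few large exceptions. The length variants fell into 9304 clones, and of the clones with length variants of an animal 82.7% ± 3.18 (SD, n = 10) had only 1. This is a share of clones, and these 7716 clones held 7716 of the 18652 length variants. The share of all clones that held a single read is not given here. The 10 clones with the most length variants of each animal held between 13.6% (HuD5) and 52.1% (HuD1) of them. In the mean 78.5% ± 4.38 (SD, n = 10) of the length variants belonged to a clone that also had reads of usual length in the same animal. For a further 11.7% ± 3.03 the CDR3 was found on usual reads of another gene or IGHJ gene only, and 9.77% ± 2.19 had a CDR3 that was seen on no usual read of the animal.

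The 5 clones with the most length variants, among those with a CDR3 of at most 14 residues, differed in the share of their reads that were length variants. In HuD1, 895 of the 905 reads of the IGHV5-17 clone ARHYYYDGYWFAY (98.9%) were length variants, mostly with the CDR1 GFTFSDYG and the CDR2 IIYDDTT (842 reads). In HuD4, 183 of the 200 reads of the IGHV5-31 clone SPLPGYNLDH (91.5%) were length variants, most often with GITFNNYW and ISNIDDT. In the IGHV5-25 clone VRQDTSGYSNWFAY of HuD4 it was 172 of 283 reads (60.8%), and in the IGHV5S10 clone VTHPSWFGY of DNP3 210 of 520 (40.4%). In the IGHV3-3 clone ARWPGYNPPYAMDA of DNP4 it was 245 of 2498 reads (9.81%), and the most frequent pair of loops held only 31 of them.

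The copy number gave a readout that the choice of the members had not used. It can depend on the CDR3 and on the size of the clone, because bases of the CDR3 were part of the tag. The comparison below was weighted by gene but not by clone. Of the length variants 94.0% were backed by 1 sequenced copy, and the largest had 18 copies, whereas a read of usual length reached 314. These maxima come from sets of unlike size, 18652 length variants and 1585100 reads of usual length, and are not comparable. In the mean of the animals 5.61% ± 4.84 of the length variants had 2 or more copies, against 14.5% ± 3.11 of the other reads when these were weighted to the same genes (SD, n = 10). The share was lower in 9 of the 10 animals, with differences from −5.62 percentage points in DNP3 to −15.3 points in HuD4, and higher by 7.43 points in HuD1. The mean difference was −8.89 percentage points ± 6.53 (SD, n = 10; exact sign-flip permutation test, two-sided, p = 0.00781), and the adjusted p of 0.0547 over the 7 tests of the same exact permutation family did not pass 0.05. Without HuD1 the difference was −10.7 points with an exact sign-flip adjusted p = 0.0273, whereas without any other single animal the exact sign-flip adjusted p was 0.0547 to 0.109. Among the reads with 2 or more copies, the mean share of length variants was lower in most of the IGHV5 genes named above. Examples were 0.211% in place of 1.13% in IGHV5-25 and 0.02% in place of 1.00% in IGHV5S13. It was higher in IGHV5-17, with 6.30% in place of 3.70%, and in IGHV5S10, with 3.04% in place of 2.09%. Over reads of any copy number, the mean was 0.307% in IGHV5-17 without HuD1 and 0.428% in IGHV5S10 without DNP3.

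Within the classes the copy numbers differed further. Of the reads without FR1, 1.15% ± 1.37 had 2 or more copies, which was 13.4 points less than the weighted other reads and lower in all 10 animals. Of the reads with usual frameworks it was 4.80% ± 5.59, and of the other reads with a changed framework length 7.64% ± 6.16 (SD, n = 10 each). The length variants of the IGHV5-17 clone of HuD1 had a mean of 1.78 copies and up to 11 copies, and its 10 other reads a mean of 1.3. In the IGHV3-3 clone of DNP4 the length variants had 2.04 copies in the mean and up to 18, and the usual reads of the clone 3.46 in the mean.

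CDR3 length was compared in the same way. The CDR3 of the length variants had 12.1 residues ± 0.470 in the mean of the animals, and that of the other reads weighted to the same genes 11.8 ± 0.681 (SD, n = 10). The difference of 0.39 residues ± 0.601 was positive in 7 of 10 animals and did not pass 0.05 (exact sign-flip permutation test, two-sided, p = 0.0547, adjusted p = 0.191). HuD1 and DNP5 had the largest differences, 1.57 and 1.27 residues, and DNP3 was lowest with −0.36 residues.

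**Figure D5:**
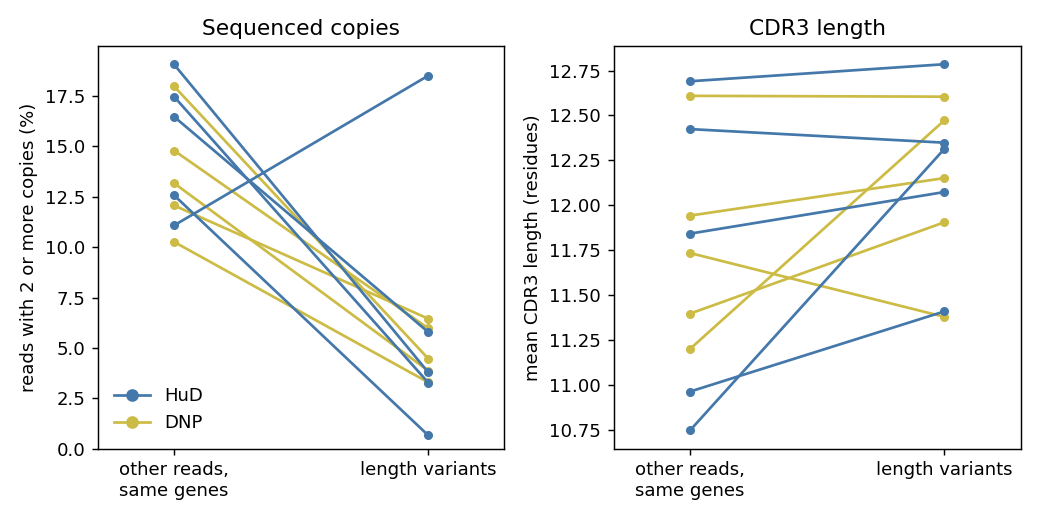
Percent of reads with 2 or more sequenced copies (left) and mean CDR3 length in residues (right, axis not starting at 0) for the length variants and for the other reads weighted to the same genes, with 1 line per animal, HuD in blue and DNP in yellow. The lines fall on the left in all animals except HuD1, whereas on the right they run in both directions.

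Among the reads with usual frameworks, the number of FR3 residues that differed from the most frequent residue of the gene was counted as a measure of exchange outside the loops. It was 2.58 ± 0.571 in the length variants and 2.16 ± 0.508 in the other reads weighted to the same genes (SD, n = 10), and it was higher in 9 of 10 animals. Without IGHV3-3 the values were 2.92 ± 0.661 and 2.26 ± 0.555. HuD4 had the largest difference, 3.00 against 1.79 residues, and DNP3 was the exception with 2.80 against 3.06. This measure was chosen after the other values were seen and was not tested.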

How the data were processed

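Spleen RNA of 10 Wistar rats was reverse transcribed with tagged primers in the heavy chain constant domain, amplified by multiplex PCR and sequenced on a MiSeq in a single run. Per the paper's methods, the authors joined both ends of each fragment in PEAR, used MIGEC (minimum of 1 copy) to combine sequences that share a tag, and took IGHV gene, segments and functionality from High-VQuest. Versions of these tools and of the germline set were not given in the sources used here. The deposited files list 1 collapsed sequence per line as gapped amino acids, and beside it the authors' count of sequenced copies, which is raw. Tags can be shared by unlike molecules and a single copy carries no error correction, so that sequence errors can remain. Per the supplement, the tag was too short and was supplemented with bases of the CDR3. No nucleotides were used, and without germline sequences the most frequent length and residue of a gene stood in for its germline form.

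Productive lines were used, 60647 to 259834 per animal, and the first named IGHV gene was taken. Genes with under 1000 reads (12144 reads, 0.752%) were left out. The length-variant rule, the clones and the comparisons were computed with Python 3.11.15, numpy 2.4.6 and pandas 2.3.3, and the intervals with scipy 1.17.1. Figures were drawn with matplotlib 3.10.9. The members and the lists were chosen with earlier results of these data known. Antigens were compared by exact two-sided permutation over the 252 sets of 5 animals, and differences within animals, with the other reads weighted to the genes of the length variants, by exact two-sided sign-flip permutation (smallest p 0.00195). Benjamini-Hochberg adjustment was applied over 7 such tests, and separately over the 38 genes. The genes and length variants named are the 10 with the highest mean RPM over the animals, and the clones named are the 5 with the most length variants and a CDR3 of at most 14 residues. The limit that a count of 0 allows is 3 counts. The tests were checked on simulated data. Alternatives were the sequenced copies or unique sequences as unit, reads with 2 or more copies, other functionality calls, reads naming a single gene, genes with 5000 or more reads, usual lengths per allele, reads with an FR1 of at least 20 residues, leaving out the most abundant length variant or each animal, and pairing by number. Leaving out the largest clone, or the members with changed framework lengths, was added after seeing the data.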

Additional observations from a re-analysis of the deposited data

Results flagged for a closer look

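Within the groups of 5 animals, 18 of 54 sets of values had an animal that lay apart from the other 4, where chance alone gives about 5 in 100. The sets are not independent, because the shares and the abundances of the same gene were both examined. Most of them were also of genes and length variants chosen for a high mean RPM, which a single very high animal raises. The rate of 5 in 100 does not hold for values chosen in this way, so that no excess over chance can be read from the count.

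HuD1 lay apart with 34.3% length variants in IGHV5-17 and 8517 RPM of its CDR2 of 7 residues (0.288 to 0.503% and 11.9 to 48.2 RPM in the other HuD animals). It was also apart in the multi-copy difference, which was 7.43 percentage points in HuD1 and −15.3 to −10.7 in the others.

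HuD4 lay apart with 5.51% in IGHV5-25 (5924 RPM of the CDR2 of 7 residues, 256 to 809 RPM in the others) and 6.19% in IGHV5-31 (3307 RPM of the CDR2 of 7 residues, 135 to 570 RPM in the others). It was also highest of the HuD animals for the CDR2 of 7 residues in IGHV5-20, with 413 RPM, and in IGHV5S13, with 760 RPM.

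DNP3, the animal with the fewest reads, lay apart in the share with common gene weights, 3.15% against 1.03 to 1.18% in the other DNP animals. Each gene was weighted by its mean use over the animals, also where DNP3 had few reads of it. Examples in DNP3 were IGHV5-29 with 8.70% from 2 length variants and IGHV3-3 with 17.4% from 68. DNP3 also lay apart with 17.0% in IGHV5S10, 2.51% in IGHV3-1 and 2.80% in IGHV5S13, and for IGHV5S10 with no CDR1 (3759 RPM) and with a CDR2 of 2 residues (3512 RPM). The latter was also apart in HuD1, at 19.2 RPM, which stands for 3 reads, with 0 in the other HuD animals. DNP5 lay apart in IGHV5-27, with 6.82% and 382 RPM of the CDR2 of 7 residues.

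The reads that were not productive were not used in the comparisons. By the same genes and usual lengths, 4.44% ± 5.05 (SD, n = 10) of the reads called unproductive were length variants, from 1.13 to 14.9% in the animals, and 1.62% ± 1.42 of those with unknown functionality, from 0.411 to 4.71%. In unproductive reads the reading frame can be lost, so that their loop lengths are not comparable with those of productive reads.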

How the results depend on the processing

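The antigen comparisons stayed above an adjusted p of 0.05 in all alternatives, and no gene passed in any of them, but the direction of their small differences was not stable. Leaving out 1 animal at a time, the difference between HuD and DNP ranged from −0.14 to 0.23 percentage points for all length variants. It ranged from −0.30 to −0.13 for CDR1, from −0.019 to 0.38 for CDR2, from −0.34 to 0.25 with common gene weights and from −0.22 to 0.39 for clones. The highest values all came without DNP3, and the lowest without HuD4, or without DNP5 for CDR1. Other reversals were the clones among reads with 2 or more copies (−0.18) and all length variants without the largest clone (−0.042). Common gene weights also reversed with reads of a full FR1 (0.021) or without members of changed framework length (0.15). With the same-numbered animals as pairs (replicate block), the differences were equal to those of the main tests, 0.07 percentage points for all length variants, with an exact sign-flip p of 1, where the smallest possible is 0.0625. The numbers are of different animals, and the deviations of same-numbered animals over 38 genes correlated at −0.26 to 0.23, so that they share only a number.

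The multi-copy difference, which was not computed with another unit, among reads with 2 or more copies or by pairs, kept its sign in the alternatives run, from −10.7 without HuD1 to −8.18 without HuD4. It passed an adjusted p of 0.05 without HuD1, without the most abundant length variant (−9.34) and without the largest clone (−10.1), and did not pass otherwise (exact sign-flip adjusted p = 0.0547 to 0.109). The CDR3 difference ranged from 0.26 to 0.47 residues without single animals, was 0.83 among reads with 2 or more copies (exact sign-flip adjusted p = 0.527), and passed at 0.21 residues when unique sequences were counted (exact sign-flip permutation test, adjusted p = 0.0488). The cause was not tested. Functionality calls and alleles gave the main values again, since the files hold no other productive call and no allele but the first. Of the 400 values of named genes and length variants under the alternatives, 46 moved by over 1.5 times. Leaving out 1 animal gave 12 of these, such as IGHV5S10 with a CDR2 of 2 residues (354 to 2.93 RPM without DNP3) and with no CDR1 (400.1 to 26.9 RPM without DNP3), and IGHV5-17 with a CDR2 of 7 residues (873 to 23.5 RPM without HuD1). Reads naming a single gene took IGHV5-25 with a CDR2 of 7 residues from 932 to 413 RPM. Depth limits the rare genes, since only 38 of 55 had 20 or more reads in every animal.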
